A study of Mus musculus with 3 samples.

Results

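The 34 genes described here, many of which cells switch on within a short time of a stimulus or of protein damage, were read in single cells of newborn mouse heart. The set holds 25 immediate early genes and 9 heat shock genes, 34 of the 28001 features of the count tables, and each was found under 1 gene ID. They were taken by symbol from a list of known genes of both kinds. All animals were ICR mice at postnatal day 2 with the genotype HCN4H2BGFP, named for Hcn4, the gene of a pacemaker channel, and a green fluorescent protein fused to a histone. The GFP-positive library held sinoatrial node region cells sorted for the reporter, the GFP-negative library held cells of that region sorted against it, and the library named RA held unsorted cells. The labels also give the tissue of the RA library as sinoatrial node region, so its name and its tissue label differ. Each group had 1 library, the labels do not say how many animals stand behind it, and both sorted libraries differ from the RA library in having been sorted. Spread between replicates could therefore not be measured, no test was made, and library, sort and tissue piece cannot be told apart.

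Immediate early genes need no new protein for their transcription. Serum response factor with its ternary complex partners, and the cyclic AMP response element binding protein, act on their promoters when kinases are activated, and most of the transcripts are short-lived. Fos and Jun proteins pair to form the AP-1 transcription factor, and others of the set, such as Zfp36 and Dusp1, damp the response. Heat shock genes encode chaperones, which fold or hold other proteins, and heat shock factor 1 drives several of them when unfolded protein builds up. Both groups are also known to rise while tissue is cut up and digested into single cells.

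The GFP-positive, GFP-negative and RA libraries held 50416748, 38204709 and 19975326 UMIs (unique molecular identifiers, 1 per captured transcript), and 3289, 3032 and 1289 barcodes were kept as cells. The median depth of a kept cell was 12429, 11417 and 14143 UMIs in that order. Between pairs of libraries, 19, 8 and 9 barcodes were shared. Cells were sorted into classes by the UMIs of 8 markers each, so that every class name here stands for cells that are like that type by those markers, and 160, 674 and 197 cells stayed ungated. No class with at least 30 cells had a marker of another class among its 10 leading genes, and none had a member there. An own marker was absent from that top 10 in GFP-positive endothelial, GFP-negative smooth muscle or pericyte, and RA cardiomyocyte, endothelial and fibroblast cells. The leading genes there all lie outside the gate, the first being Bmx, Olfr558, Trim55, Sox18 and Moxd1 in that order. Haemoglobin UMIs in kept cells were 0.0340%, 4.88% and 7.70% of the total in the same order of libraries. Barcodes with under 500 genes carried a mean of 4.09, 3.62 and 3.22 immediate early UMIs. Haemoglobin made up 11.6%, 91.5% and 90.5% of their UMIs, and what these barcodes hold was not tested. Outside haemoglobin their immediate early genes stood at 828, 5764 and 4531 CPM, against 10033, 9248 and 6961 CPM in kept cells. The part of free RNA in the differences was not tested.

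The promoters of 5 members that recur in the results are shown with any matches, within a short window, to elements known to drive the 2 groups. Each is the 250 bases before the start of transcription from RefSeq (GRCm38.p6), 5′ to 3′ on the gene's strand. Capitals mark the first 6 bases of the cyclic AMP response element (TGACGT, or its full form TGACGTCA) in the immediate early genes and the 2-unit heat shock element (GAANNTTC or TTCNNGAA) in the heat shock genes, both strands searched. The Fos promoter lies at chr12:85473640-85473889 (+), that of Dusp1 at chr17:26508473-26508722 (-), that of Hspa1a at chr17:34972157-34972406 (-), that of Hspb1 at chr5:135887669-135887918 (+) and the first of 2 listed for Dnajb1 at chr8:83607925-83608174 (+).
Fos: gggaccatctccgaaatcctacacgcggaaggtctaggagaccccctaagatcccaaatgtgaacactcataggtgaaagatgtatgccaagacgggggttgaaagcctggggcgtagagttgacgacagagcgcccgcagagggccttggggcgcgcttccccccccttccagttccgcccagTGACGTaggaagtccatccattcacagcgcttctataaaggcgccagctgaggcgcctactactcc
Dusp1: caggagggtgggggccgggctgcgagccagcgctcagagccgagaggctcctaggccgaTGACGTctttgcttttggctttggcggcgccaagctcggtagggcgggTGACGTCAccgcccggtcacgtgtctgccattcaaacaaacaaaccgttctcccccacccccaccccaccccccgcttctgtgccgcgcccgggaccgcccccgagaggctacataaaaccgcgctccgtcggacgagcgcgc
Hspa1a: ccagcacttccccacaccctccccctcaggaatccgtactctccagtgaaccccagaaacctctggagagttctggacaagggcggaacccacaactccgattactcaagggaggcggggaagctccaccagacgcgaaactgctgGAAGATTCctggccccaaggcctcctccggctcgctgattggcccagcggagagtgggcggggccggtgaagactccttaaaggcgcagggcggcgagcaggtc
Hspb1: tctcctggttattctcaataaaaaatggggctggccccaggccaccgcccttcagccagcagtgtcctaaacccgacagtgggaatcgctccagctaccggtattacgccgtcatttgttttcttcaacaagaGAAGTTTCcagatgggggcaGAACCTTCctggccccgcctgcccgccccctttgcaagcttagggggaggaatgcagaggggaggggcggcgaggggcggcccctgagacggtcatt
Dnajb1: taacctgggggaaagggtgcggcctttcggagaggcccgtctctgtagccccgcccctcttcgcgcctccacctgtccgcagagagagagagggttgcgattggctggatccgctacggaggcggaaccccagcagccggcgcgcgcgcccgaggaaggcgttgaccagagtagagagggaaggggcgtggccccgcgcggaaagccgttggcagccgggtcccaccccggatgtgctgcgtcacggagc
RefSeq promoters of this table were matched to 27 of the 34 members, 20 immediate early and 7 heat shock genes. The 6-base form was in 6 of 20 immediate early genes (Fos, Egr2, Atf3, Nr4a3, Btg2 and Dusp1), in 0 of 7 heat shock genes and in 6.47% of all 32851 promoters. The 2-unit heat shock element was in 3 of 20 and in 5 of 7 (Hspa1a, Hspa1b, Hsph1, Hspb1 and Hspe1), against 12.8% of all. A gene with several promoters counted if any of them matched, while the shares of all are per promoter. Counted by promoter, the 6-base form was in 8 of 24 and 0 of 9, and the 2-unit element in 3 of 24 and 6 of 9. These 2 shorter forms were added after the other motifs had been searched and promoters had been read, and the 5 promoters printed were picked after the matches were seen. The 5 motifs searched first gave fewer matches. The full response element was in 2 of 20 and 0 of 7 (1.55% of all), the 3-unit heat shock element (GAANNTTCNNGAA or TTCNNGAANNTTC) in 0 of 20 and 1 of 7 (0.466%), the CArG box bound by serum response factor in 2 of 20 and 0 of 7 (1.47%), the AP-1 site TGANTCA in 0 of 20 and 1 of 7 (6.75%) and the TATA box TATAAA in 2 of 20 and 0 of 7 (12.4%). A match describes letters only. Elements outside the 250 bases were not searched, so an absent match does not show that a gene lacks the element. Egr1 and Ier2 are among the members with no promoter here. Hspa1a and Hspa1b differ at 3 of 250 promoter bases. In the last 500 transcript bases, 81.8% of 50-base windows of Hspa8, 53.2% of Hspe1 and 16% of Hspb1 also occur in transcripts of other genes, so the counts of these 3 are uncertain.

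Among the gated classes, both groups of genes had their lowest sums in cardiomyocytes in each library. For the heat shock genes of the GFP-negative library this order turned round once Hspa8 was left out, and the endocardial subclass of endothelial cells could lie lower still. For each class and library the UMIs of all cells were added up and are given as CPM, counts scaled to a common total. Intervals in parentheses are 95% exact Poisson or binomial intervals and cover counting error only. The 25 immediate early genes together stood at 4009.7 CPM (3941 to 4079) in GFP-positive, 2044 CPM (1944 to 2148) in GFP-negative and 1559 CPM (1480.2 to 1641) in RA cardiomyocytes. In endothelial cells the sum was 10006, 5215 and 4849 CPM in the same order of libraries. Fibroblasts had 9277 CPM in the GFP-negative and 7474 CPM in the RA library, and macrophages 12519 and 9517 CPM. GFP-positive mesothelial cells had 11774 CPM. The GFP-negative library also held smooth muscle or pericyte cells at 9865 CPM, other leukocytes at 7699 CPM and glial cells at 6673 CPM.

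**Figure D1:**
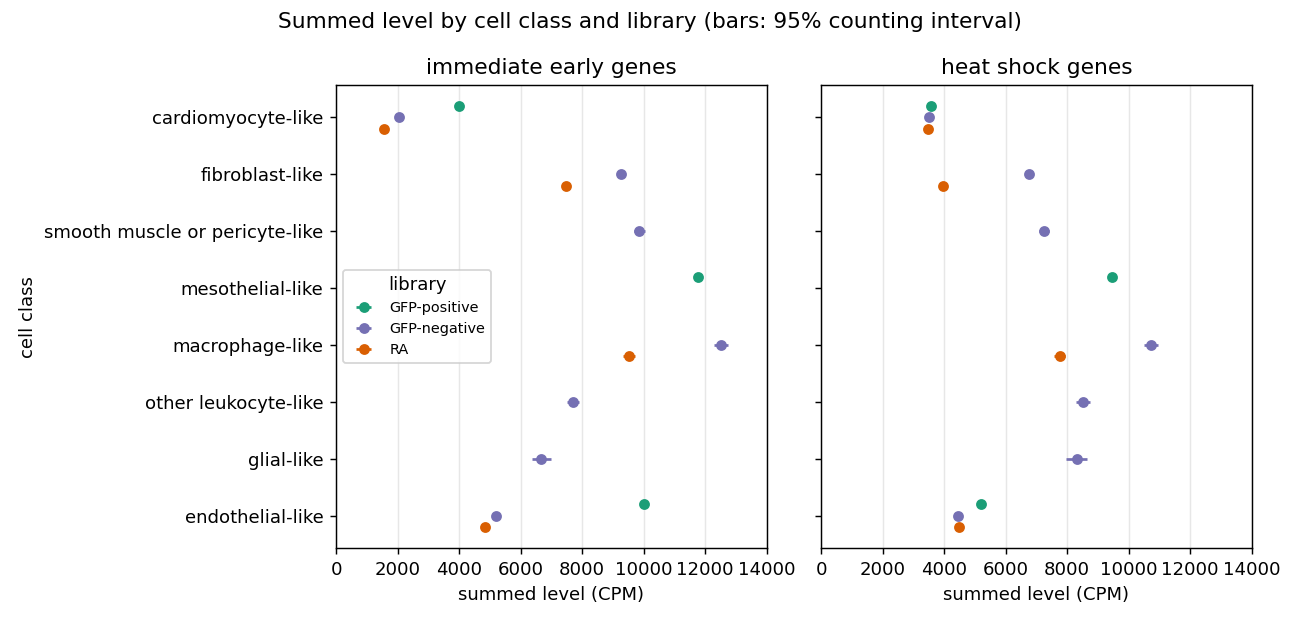
Summed level in CPM of the 25 immediate early and the 9 heat shock genes (x axes) by cell class (y axis), 1 point per library with its 95% counting interval. Cardiomyocytes are lowest for the immediate early genes, at 4009.7, 2044 and 1559 CPM in the GFP-positive, GFP-negative and RA libraries, while their heat shock sums lie close together at 3577, 3512 and 3462 CPM.

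The heat shock genes followed another order. Their sum was 3577, 3512 and 3462 CPM in GFP-positive, GFP-negative and RA cardiomyocytes, a spread far narrower than that of their immediate early sums. Endothelial cells had 5197, 4465 and 4478 CPM. Macrophages had 10727 CPM in the GFP-negative and 7759.6 CPM in the RA library, each the highest of its library, and GFP-positive mesothelial cells had 9455 CPM. GFP-negative other leukocytes, glial cells and smooth muscle or pericyte cells had 8511, 8304 and 7244 CPM. Fibroblasts had 6768 CPM in the GFP-negative and 3954 CPM in the RA library. Without Hspa8, whose reads other genes may share, the sum was 2345, 2260.0 and 2079 CPM in cardiomyocytes and 3309.7, 2132 and 2268 CPM in endothelial cells of the 3 libraries. Endocardial cells, an endothelial subclass named by markers such as Npr3, had 3781, 3687 and 3302 CPM, below cardiomyocytes in the RA library only. Without Hspa8 these endocardial sums were 2091, 1858 and 1552 CPM, below cardiomyocytes in each library.

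**Figure D2:**
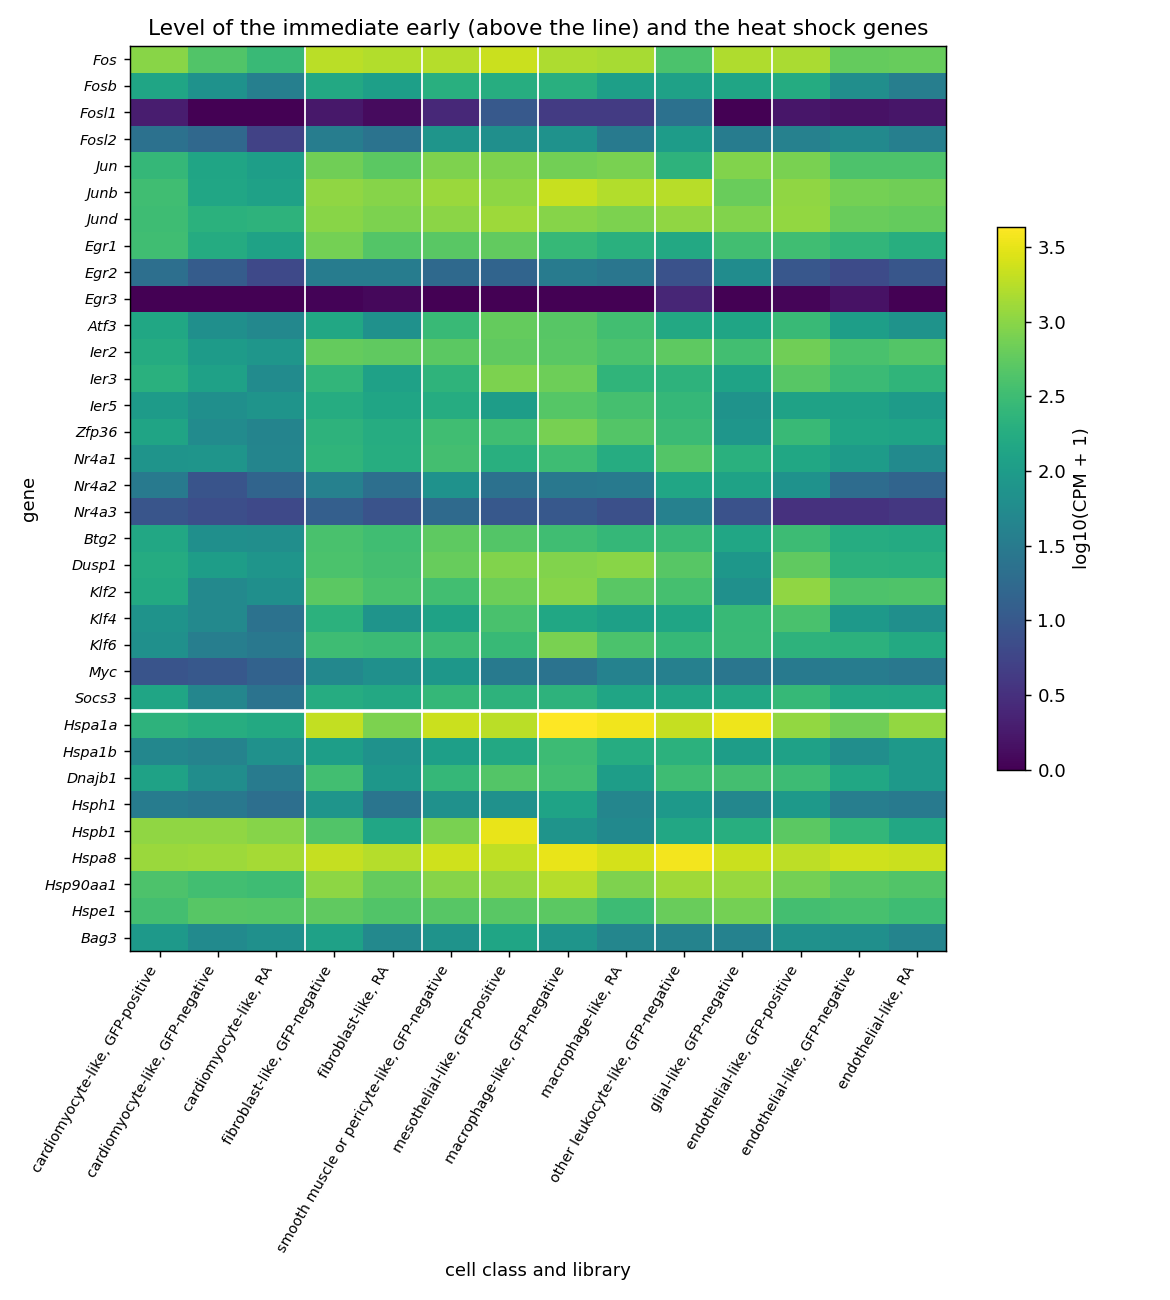
Level of each member (rows, log10 of CPM + 1) in each cell class and library with at least 30 cells (columns), with the immediate early genes above the horizontal white line. Hspa1a is brightest in macrophages at 4309 CPM (GFP-negative) and 3623 CPM (RA), and Hspb1 in mesothelial cells at 3231 CPM.

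Single members departed from these sums. Hspb1, a small chaperone of the actin cytoskeleton abundant in muscle, was at 1065, 1057 and 943 CPM in GFP-positive, GFP-negative and RA cardiomyocytes and at 519.7, 253 and 150.4 CPM in endothelial cells. In macrophages it was at 75.9 and 52.4 CPM in the GFP-negative and RA libraries. Hspa1a, the inducible HSP70, ran the other way, at 220.2, 181 and 158 CPM in cardiomyocytes and at 4309 and 3623 CPM in GFP-negative and RA macrophages. Its ratio to its neighbour Hspa1b was not constant. There were 4.62 UMIs of Hspa1a per UMI of Hspa1b in GFP-positive, 4.31 in GFP-negative and 2.31 (1.71 to 3.15) in RA cardiomyocytes, against 9.08, 11.2 and 12.0 in endothelial cells of the same libraries. Fosl1 and Egr3 were measured in no comparison and Nr4a3 in 1, since they stayed under a mean of 10 CPM.

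Against endothelial cells of the same library, cardiomyocytes had lower levels of most immediate early genes, by at least 1.5-fold. A gene was measured at a mean of at least 10 CPM over both classes with at least 20 UMIs in both together. In the GFP-positive library 18 of 22 immediate early and 6 of 9 heat shock genes were lower, where 36.1% of all 8185 measured genes were. There, 1 of each group was higher, where 21.8% of all were. In the GFP-negative library 17 of 21 and 3 of 9 were lower (37.9% of all genes), and 0 and 1 were higher (23.3%). In the RA library 16 of 21 and 3 of 9 were lower (38.8%), and 0 and 2 were higher (22.0%). The median log2 ratio of the immediate early genes was -1.19, -1.30 and -1.45 in the 3 libraries, beside -0.23, -0.24 and -0.28 over all measured genes.

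In all 3 libraries 14 of 21 immediate early genes were lower in cardiomyocytes, where 26.4% of all 7084 genes measured in each were, among them Jun, Junb, Jund and the endothelial flow-responsive factor Klf2. Klf2 was at 158 CPM in cardiomyocytes against 1087 CPM in endothelial cells of the GFP-positive library, at 51.0 against 413 CPM in the GFP-negative and at 64.0 against 436 CPM in the RA library, with log2 ratios of -2.78, -3.00 and -2.76. Jun was at 265 against 789 CPM, 135 against 417 CPM and 107 against 417 CPM. Both genes were lower in cardiomyocytes in each library. Fos itself was lower past 1.5-fold in the GFP-positive (965 against 1504 CPM) and RA (288 against 612 CPM) libraries, and at 439.7 against 590.4 CPM in the GFP-negative library. Hspa1a, Dnajb1 (the HSP40 partner of HSP70) and Hspa8 (the constitutive HSC70) were lower in all 3, while Hspb1 was higher in all 3 (15.6% of all genes), by 2.05-fold (1.98 to 2.13), 4.18-fold (3.74 to 4.68) and 6.27-fold (5.60 to 7.03) in GFP-positive, GFP-negative and RA.

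Macrophages had higher levels than endothelial cells for 16 of 22 immediate early and 5 of 9 heat shock genes in the GFP-negative library, where 19.3% of all genes were higher, and for 14 of 22 and 4 of 9 in the RA library, where 18.5% were. None and 1 were lower in each (37.9% and 41.0% of all genes), the 1 being Hspb1. The same 14 immediate early genes were higher in both libraries, where 14.9% of 7240 genes were. Zfp36, which destabilises cytokine messages, was at 775 against 136 CPM in the GFP-negative and at 452 against 128 CPM in the RA library. Dusp1, a phosphatase that switches off mitogen-activated kinases, was at 869 against 219 CPM and at 965 against 200.3 CPM. Hspa1a was 6.19-fold (5.82 to 6.58) higher in the GFP-negative and 3.29-fold (3.14 to 3.46) higher in the RA library.

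Fibroblasts differed between the 2 groups of genes. In the GFP-negative library 13 of 22 immediate early and 8 of 9 heat shock genes were higher than in endothelial cells, where 14.8% of all genes were, and 1 and 0 were lower (23.9%). In the RA library 9 of 22 immediate early genes were higher but 0 of 9 heat shock genes (13.9%), and 2 and 0 were lower (23.1%). Fos, Fosb, Egr1, Egr2, Nr4a1, Btg2 and Dusp1 were higher in both, 7 of 22, where 10.9% of 7396 genes were. Fos was at 1836 against 590.4 CPM in the GFP-negative and at 1644 against 612 CPM in the RA library. Fosl2, a Fos relative, was lower in both (17.4% of genes), at 33.4 against 52.0 CPM and 22.9 against 36.1 CPM.

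Other classes were compared in 1 library each. GFP-positive mesothelial cells had 6 of 22 immediate early and 4 of 9 heat shock genes higher than endothelial cells (15.1% of all genes) and 2 and 0 lower (21.8%). Their Hspb1 was at 3231 against 519.7 CPM, a 6.22-fold difference (6.10 to 6.33), and Atf3, a stress-induced factor, at 595 against 286 CPM. Fibroblast markers summed to 7410.3 CPM in the mesothelial class, above its own markers at 6248 CPM, against 581 CPM in endothelial cells, and their part was not tested. In the GFP-negative library, smooth muscle or pericyte cells had 15 of 22 and 6 of 9 higher (22.1%) and 0 and 0 lower (17.7%). Other leukocytes had 11 of 22 and 7 of 9 higher (17.8%) and 2 and 1 lower (40.5%), with the orphan nuclear receptor Nr4a2 at 141 against 18.5 CPM. The 32 glial cells had 7 of 22 and 5 of 9 higher (26.9%) and 6 and 1 lower (22.0%), with Hspa1a at 3436 against 696 CPM.

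Between libraries, most immediate early genes were higher in GFP-positive endothelial cells than in those of both other libraries. Against GFP-negative endothelial cells 14 of 21 immediate early and 5 of 9 heat shock genes were higher, where 13.1% of all 7866 genes were, and 0 and 0 were lower (6.25%). Against RA endothelial cells 17 of 21 and 5 of 9 were higher (13.6%), and 0 and 0 were lower (9.15%). The median log2 ratios of the immediate early genes were 0.83 and 0.95, beside 0.05 and -0.00 over all genes. Both comparisons share the GFP-positive cells.

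Klf4, a zinc finger factor that restrains inflammatory genes in endothelium, was at 388 CPM in GFP-positive, 92.3 CPM in GFP-negative and 63.5 CPM in RA endothelial cells, which is 4.20-fold (3.64 to 4.87) and 6.11-fold (5.31 to 7.07). Fos was at 1504, 590.4 and 612 CPM, Fosb at 174, 61.7 and 34.8 CPM and Atf3 at 286, 107 and 73.8 CPM. For these 4 genes the GFP-positive library stood above both others, which were closer to each other. Dnajb1 was at 307, 143 and 90.2 CPM. Hspa1a was at 1101, 696 and 1100.3 CPM, but this order of summed levels was not that of cells. After thinning to 3000 UMIs, Hspa1a was read in 62.2% (60.3% to 64.1%), 52.3% (44.6% to 59.8%) and 49.0% (42.5% to 55.5%) of cells, and 10% of RA cells held 64.3% of the Hspa1a and Hspa1b UMIs. Fibroblast markers summed to 581, 1399 and 1541 CPM in these cells, with all 8 read in each library, and mesothelial markers to 174, 59.2 and 90.5 CPM, with 8, 4 and 5 of 8 read. Smooth muscle or pericyte markers were at 45.7, 329 and 179.7 CPM and macrophage markers at 9.89, 87.4 and 87.3 CPM. Their part in the differences was not tested.

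Cardiomyocytes showed the same direction for the immediate early genes. Against GFP-negative cardiomyocytes 18 of 21 were higher in the GFP-positive library and 2 of 9 heat shock genes, where 19.4% of all 7328 genes were, and 0 and 0 were lower (8.94%). Against RA cardiomyocytes 19 of 22 and 2 of 9 were higher (22.1%), and 1 and 0 were lower (12.0%), the 1 being Myc. The medians of the immediate early genes were 0.94 and 1.37, and those of the heat shock genes 0.21 and 0.38, on the log2 scale. Fos was at 965, 439.7 and 288 CPM in the 3 libraries, and Socs3, which dampens cytokine signalling, at 135, 45.8 and 23.5 CPM. The order of libraries was the same for both. Dnajb1 was at 124, 60.2 and 32.0 CPM. The median mitochondrial share of a cardiomyocyte was 10.8%, 8.04% and 4.42%, median depth 19019, 13294 and 10142 UMIs, and the summed fibroblast markers 211, 1508 and 952 CPM in the same order. Other classes' markers ran the other way, with endothelial markers at 382, 57.6 and 77.9 CPM and mesothelial markers at 128, 9.16 and 21.3 CPM. In GFP-negative cardiomyocytes 6 of 8 mesothelial markers were at 0, Upk3b and Msln among them. The 10 leading genes of the class, ranked against other cells of its library, held Shox2 in the GFP-positive library and Myh7 in the other libraries. Trdn was among them in each library. No subclass of cardiomyocytes was gated, so the makeup of the class was not compared between libraries. The part of these values and of the makeup in the differences was not tested. Among cells with 1000 genes or more and no more than 10% mitochondrial reads, 19 immediate early genes were past 1.5-fold against GFP-negative and 20 against RA cells, and 4 heat shock genes in each. That limit lies below the GFP-positive median of 10.8%, so these counts leave out most cells of that class.

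**Figure D3:**
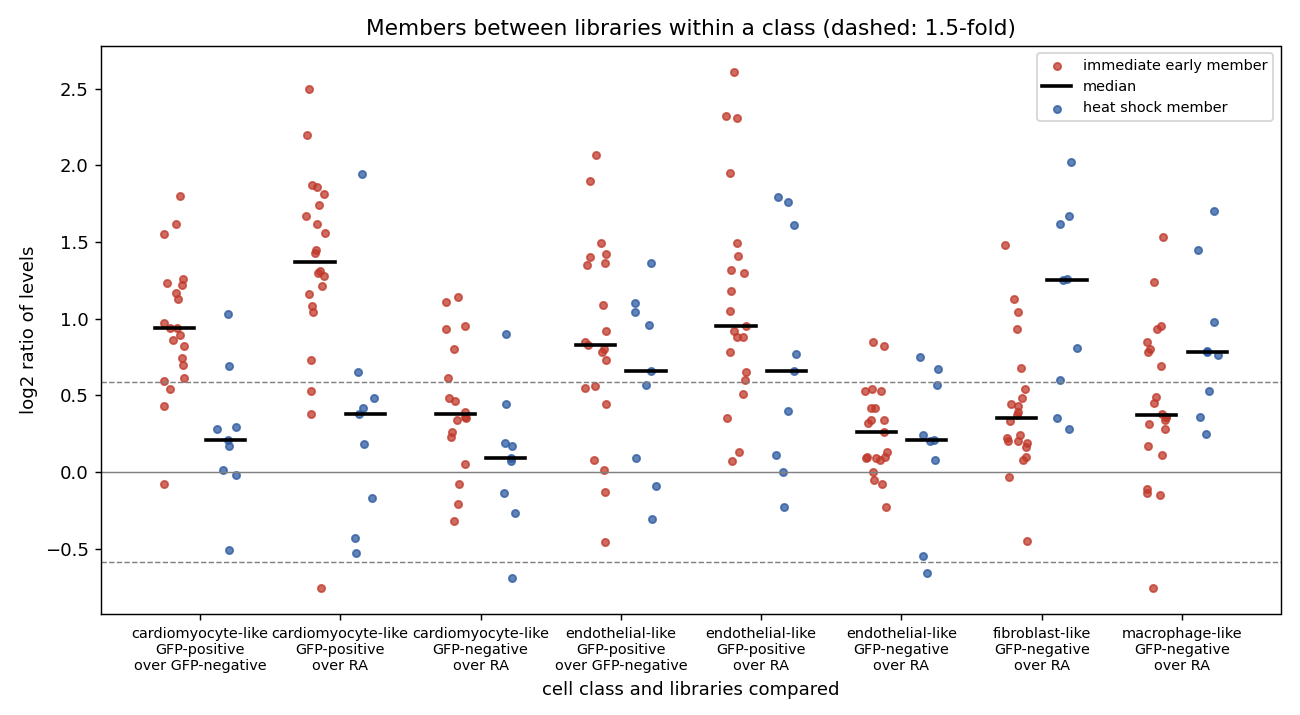
Log2 ratio of each measured member between 2 libraries within a cell class (y axis, class and libraries on the x axis), with the median as a bar and 1.5-fold as dashed lines. Immediate early genes lie higher than heat shock genes in cardiomyocytes (medians 0.94 and 0.21 for GFP-positive over GFP-negative), and heat shock genes lie higher in fibroblasts (medians 1.25 and 0.35).

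In all, 13 of 20 immediate early genes and Dnajb1 were higher in the GFP-positive than in the GFP-negative library in both classes, where 4.56% of all 6312 genes measured in both were. Against the RA library 16 of 21, Dnajb1 and Hsph1 were higher in both classes, where 6.35% of 6296 genes were. The Hsph1 difference in cardiomyocytes changed sign when class markers were read at 1 UMI.

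A larger share of the heat shock than of the immediate early genes was higher in GFP-negative than in RA fibroblasts and macrophages. Cardiomyocytes had the larger share among the immediate early genes. In fibroblasts 7 of 9 heat shock but 5 of 22 immediate early genes were higher in the GFP-negative library, where 5.90% of all 7409 genes were, and 0 and 0 were lower (5.16%). The median log2 ratio was 1.25 for the heat shock and 0.35 for the immediate early genes, beside -0.08 over all. Dnajb1 was at 337 against 83.2 CPM, a 4.05-fold difference (3.78 to 4.35), Hspb1 at 441 against 139 CPM, and Hspa1a at 1991 against 837 CPM. Bag3, a cochaperone that hands clients to autophagy, was at 119 against 49.8 CPM. Klf4 differed most of the immediate early genes, at 212 against 76.1 CPM.

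In macrophages 6 of 9 heat shock and 8 of 22 immediate early genes were higher in the GFP-negative library (13.5% of all genes), and 0 and 1 were lower (11.8%), the 1 again being Myc at 23.4 against 40.1 CPM. Dnajb1 was at 342 against 105 CPM and Ier3, a survival factor, at 676 against 234 CPM. In the same cells smooth muscle or pericyte markers summed to 707 against 168 CPM and erythroid markers to 12.3 against 162 CPM, and their part was not tested. In endothelial cells only 2 of 21 immediate early and 2 of 9 heat shock genes were higher (4.23%), and 0 and 1 were lower (5.79%). In cardiomyocytes 6 of 18 and 1 of 9 were higher (10.1%), and 0 and 1 were lower (10.9%). Dnajb1 alone of the 27 members measured in all 4 classes was higher in the GFP-negative library in every class, where 0.294% of 4755 genes were. That did not extend to capillary endothelial cells taken alone, where 0 of 9 heat shock genes were higher (6.18% of all genes).

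**Figure D4:**
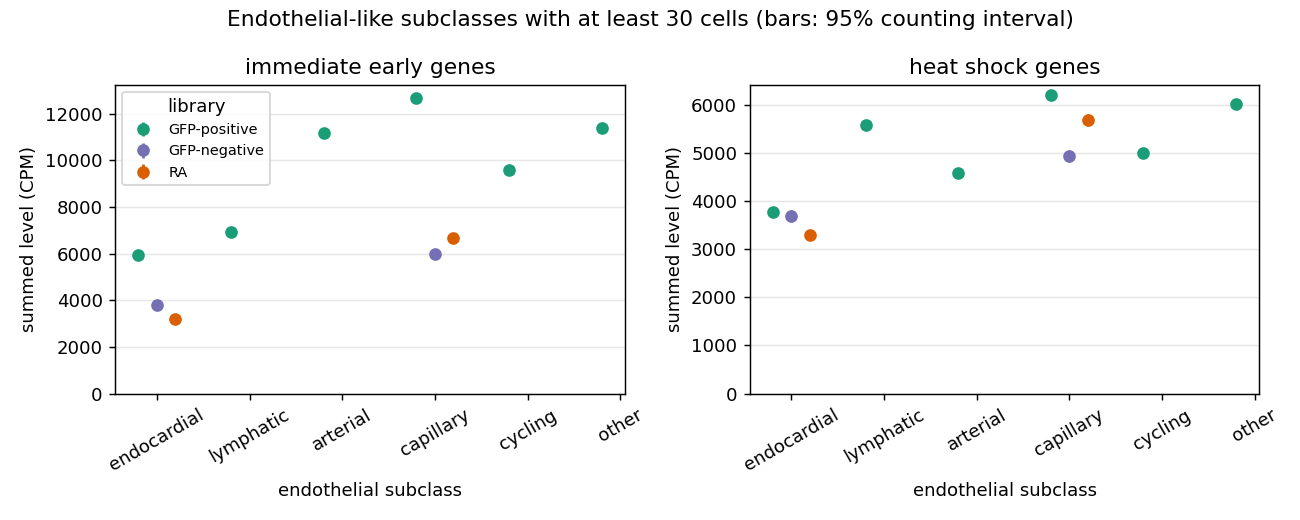
Summed level in CPM of the immediate early and heat shock genes (y axes) in endothelial subclasses with at least 30 cells (x axes), 1 point per library with its 95% counting interval. Endocardial cells lie below capillary cells in each library, at 5935 against 12688, 3816 against 5975 and 3193 against 6672 CPM for the immediate early genes in the GFP-positive, GFP-negative and RA libraries.

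Endothelial cells were not alike among themselves. In the GFP-positive library, 694 endocardial cells, named by markers such as Npr3, had 20 of 21 immediate early and 6 of 9 heat shock genes lower than the other endothelial cells, where 7.88% of all 8029 genes were, and 0 and 0 higher (7.12%). The 811 capillary cells had 10 of 21 and 4 of 9 higher (3.40%) and 0 and 0 lower (4.66%). The 146 lymphatic cells had 10 of 21 and 2 of 9 lower (14.2%) and 1 and 1 higher (11.1%). Arterial cells had 0 of 21 and 2 of 9 lower (8.40%) and 0 and 0 higher (7.03%). The 181 cycling cells had 0 and 0 lower (3.67%) and 0 and 0 higher (7.65%).

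By counts of genes, the endocardial difference was also present in both other libraries for the immediate early genes. For the heat shock genes it was present in the RA library but not in the GFP-negative library. Set against capillary cells, endocardial cells had 19 of 21 immediate early and 6 of 9 heat shock genes lower in the GFP-positive library (7.64% of all genes) and 0 and 0 higher (8.69%). They had 14 of 21 and 1 of 9 lower in the GFP-negative library (15.0%) and 1 and 0 higher (25.0%), and 17 of 21 and 8 of 9 lower in the RA library (14.3%) and 0 and 0 higher (20.2%). In all, 13 of 21 immediate early genes and 1 of 9 heat shock genes, Hspb1, were lower in all 3, where 3.80% of 6954 genes were. Ier3 was at 191 against 781 CPM in the GFP-positive, 112 against 446 CPM in the GFP-negative and 38.1 against 447 CPM in the RA library. The capillary level of Ier3 was thus closer between the GFP-negative and RA libraries than the endocardial level.

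The makeup of the endothelial class differed between libraries, with endocardial cells at 28.2% of GFP-positive, 43.6% (36.2% to 51.2%) of GFP-negative and 52.9% (46.4% to 59.3%) of RA endothelial cells. Within capillary cells, 16 of 21 immediate early and 6 of 9 heat shock genes were higher in the GFP-positive than in the GFP-negative library (19.4% of all genes) and 1 and 0 lower (11.0%), and 15 of 22 and 4 of 9 were higher than in RA (17.4%) and 1 and 0 lower (13.7%). Within endocardial cells, 10 of 21 and 1 of 9 were higher than in the GFP-negative library (11.7%) and 0 and 0 lower (6.40%), and 16 of 21 and 4 of 9 were higher than in RA (12.6%) and 0 and 0 lower (7.26%). Klf4 in capillary cells was at 476, 97.7 and 86.1 CPM in the 3 libraries. Jun was at 1023, 459 and 513 CPM in capillary and at 467, 335 and 329.7 CPM in endocardial cells. Arterial, lymphatic and other endothelial cells were too few outside the GFP-positive library to compare, and the part of the makeup in the differences of the whole class was not tested. Between the GFP-negative and RA libraries, capillary cells had 1 of 22 and 0 of 9 higher (6.18%) and 1 and 3 lower (10.9%), and endocardial cells 6 of 20 and 4 of 9 higher (7.94%) and 0 and 0 lower (8.71%). These subclass comparisons across libraries were added after the levels had been seen.

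Cells of 1 class differed widely. After each cell was thinned to 3000 UMIs, immediate early genes took a median of 0.800% of the UMIs of a GFP-positive endothelial cell, 2.07% at the 90th percentile and 5.40% in the highest cell. In GFP-positive cardiomyocytes the same values were 0.367%, 0.767% and 1.43%. Heat shock genes were more skewed in fibroblasts of the GFP-negative library, with a median of 0.433%, a 90th percentile of 1.63% and a highest cell at 6.53%. In RA fibroblasts the median was 0.300% and the 90th percentile 0.733%. The 10% of cells with most Hspa1a and Hspa1b held 48.7% of their UMIs in GFP-negative and 63.9% in RA fibroblasts.

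**Figure D5:**
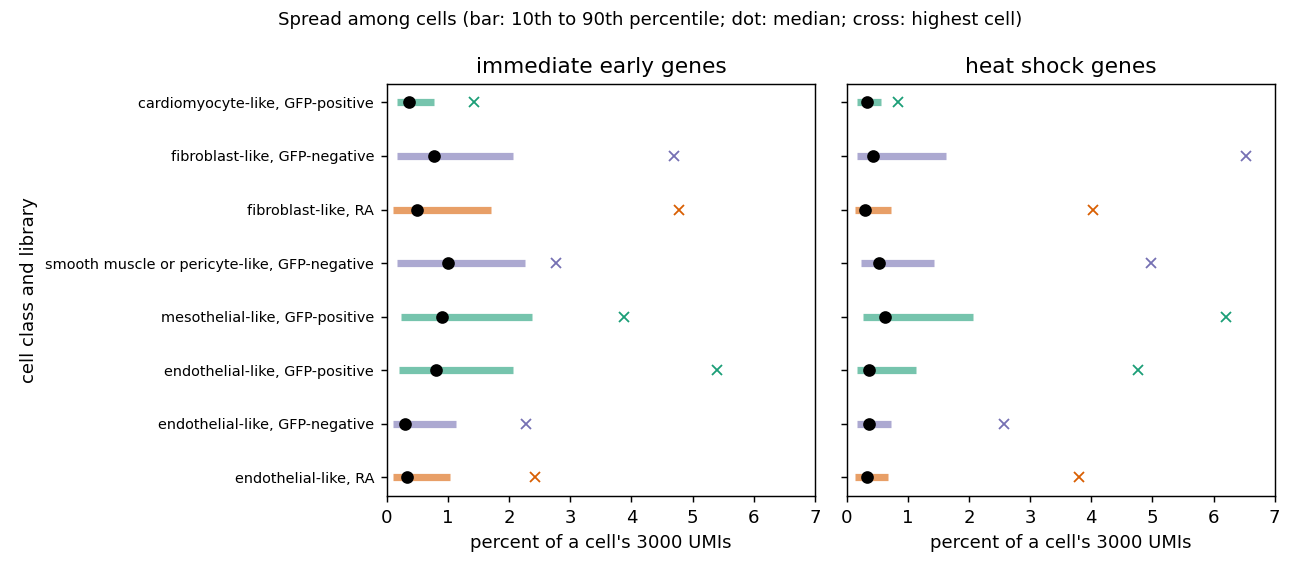
Percent of a cell's UMIs, after thinning to 3000, taken by the immediate early and the heat shock genes (x axes) in classes with at least 100 cells (y axis). Bars run from the 10th to the 90th percentile of cells, dots mark the median and crosses the highest cell, which for heat shock genes reaches 6.53% in GFP-negative fibroblasts and 0.833% in GFP-positive cardiomyocytes.

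Read by share of cells, Fos had a UMI in 87.1% (81.0% to 91.8%) of thinned GFP-positive, 51.9% (37.8% to 65.7%) of GFP-negative and 38.8% (27.1% to 51.5%) of RA cardiomyocytes, and in 99.4%, 76.8% and 61.8% of them before thinning. Hspa1a was read in 68.9% (66.7% to 71.1%) of thinned GFP-negative and 42.7% (38.8% to 46.6%) of RA fibroblasts. Before thinning the shares were 88.7% and 77.7%, with 12190.0 and 15994 UMIs in the median GFP-negative and RA cell. No class here is known to lack either gene, so no background share was set.

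Across cells, the sums of the 2 groups of genes were correlated, with Pearson r of 0.57 in 2459 GFP-positive endothelial cells, 0.68 in 465 mesothelial cells and 0.69 in 1731 GFP-negative fibroblasts, against 0.15 in 163 GFP-positive cardiomyocytes. Cells of 1 library share its handling, and in sparse counts low r carries little weight. The pair with the highest r in fibroblasts was Fos and Junb, at 0.60 in the GFP-negative and 0.65 in the RA library. Outside the set, the genes most like the immediate early sum in GFP-positive endothelial cells, of 3829 compared, were Ppp1r15a (r 0.50), which restarts translation after stress, and Nfkbia (0.50), the inhibitor of NF-κB. Nfkbia also led in mesothelial cells, at 0.65 over 465 cells. For the heat shock sum the leading genes were Phlda1 (0.47) in endothelial cells and the constitutive HSP90 gene Hsp90ab1 (0.44) in GFP-negative fibroblasts. In fibroblasts the list went on with the translation genes Eef1a1 (0.42) and Rpl4 (0.41), and also held Malat1 (0.37) and the ribosomal genes Rps14, Rpl13, Rps27 and Rpl10 (0.36 each).

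Further genes of the same pathways were read from 4 lists. Of 32 other rapid response genes, 7 of 26 measured were higher in GFP-positive over GFP-negative endothelial cells (13.1% of all genes) and 13 of 27 in GFP-positive over RA (13.6%). In each, 1 was lower (6.25% and 9.15%). Gadd45b was at 178 CPM in GFP-positive, 87.4 CPM in GFP-negative and 44.1 CPM in RA endothelial cells, and the chemokine Ccl2 was lower at 67.4, against 197 and 212 CPM. In cardiomyocytes 11 of 23 were higher in GFP-positive over GFP-negative (19.4%) and 17 of 23 in GFP-positive over RA (22.1%), with 0 lower in each (8.94% and 12.0%).

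Cardiomyocytes over endothelial cells had 22 of 27, 21 of 25 and 20 of 25 of these rapid response genes lower in the GFP-positive, GFP-negative and RA libraries, where 36.1%, 37.9% and 38.8% of all genes were. Of 22 other chaperones 7, 8 and 9 were higher, where 21.8%, 23.3% and 22.0% of all genes were, and 3, 5 and 3 were lower. The muscle small heat shock genes Hspb7 (928 against 6.76 CPM), Hspb6 (242 against 6.82 CPM) and Cryab (1641 against 61.9 CPM) were among those higher in the GFP-positive library. In GFP-negative over RA fibroblasts, where 7 of 9 members were higher, 1 of 19 other chaperones was (5.90% of all genes).

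Of 11 endoplasmic reticulum stress genes, 8, 4 and 9 were lower in cardiomyocytes over endothelial cells in the 3 libraries, where 36.1%, 37.9% and 38.8% of all genes were. In each library 0 were higher, where 21.8%, 23.3% and 22.0% of all genes were. The GFP-negative count of lower genes was thus near the share of all genes. Among 12 upstream factors and kinases, 5 of 9, 5 of 10 and 5 of 10 were lower in that comparison. There, 1, 2 and 2 were higher, beside the same shares of all genes in each direction. Of these upstream genes, 3 of 9 were higher and 1 lower in GFP-positive over GFP-negative cardiomyocytes (19.4% and 8.94% of all genes). Against RA cardiomyocytes 4 of 9 were higher and 0 lower (22.1% and 12.0%). GFP-positive endothelial cells had 1 of 9 higher over GFP-negative (13.1%) and 0 of 8 over RA (13.6%), with 0 lower in each (6.25% and 9.15%).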

How the data were processed

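The authors deposited 1 table of UMI counts per library (10x single-cell RNA-seq), raw and not normalized. Per the submitters' processing notes they used Cell Ranger, with no version given, and the mouse build mm9. The filters behind the deposited barcodes are not given in the sources used here. Totals per library stand in the text, and intervals cover counting error only, since each group had 1 library.

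Kept cells had 500 genes or more and a mitochondrial share of no more than 50%. A cell joined a class when at least 3 of its 8 markers were read at 2 or more UMIs, with a lead of 2 over other classes. Endothelial subclasses needed 2 of 6 markers. No doublet caller was run, and leaving out the deepest 5% of cells is an alternative. UMIs were summed by class and library and divided by the class total to give CPM. Ratios have exact conditional binomial intervals, and log2 ratios add 0.5 UMIs. A comparison needed 30 cells on both sides. A gene counted as measured at a mean of at least 10 CPM with at least 20 UMIs in both sums together, and as higher or lower at 1.5-fold. This minimum can leave out a gene that is low on both sides. Shares, spread and correlations used cells thinned to 3000 UMIs. The ratios and their intervals were checked on simulated class sums, which held counting error but no spread between cells. Thinning was checked on real cells, and the other steps were not checked in this way. Python 3.11.15, numpy 2.4.6, scipy 1.17.1 and pandas 2.3.3 were used.

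The members, lists and tests were chosen with earlier results of these data known. All 24 class, library and subclass comparisons that were planned and 9 that were added are given in both directions. The 9 added ones compare capillary or endocardial cells. They, the ratio of Hspa1a to Hspa1b, the subclass shares and the counts of genes shared between comparisons, with the same count over all genes, were chosen after levels had been seen. So were the single ratios and shares that were recomputed under other settings. Promoters came from RefSeq tables of GRCm38.p6, while the counts used mm9. The window was shortened to 250 bases after a first search. Genes outside the set were ranked by the correlation of their thinned counts with a group's sum, among genes read in at least 10% of cells. Other members were named for role, for size of difference or for recurring across classes.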

Additional observations from a re-analysis of the deposited data

Results flagged for a closer look

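Hspa1a and Hspa1b moved in opposite directions between the GFP-negative and RA libraries, depending on the cell class. The log2 ratio of GFP-negative over RA for Hspa1a was -0.66 in endothelial cells and 1.25 in fibroblasts. That of Hspa1b was -0.69 in cardiomyocytes, 0.60 in fibroblasts and 0.79 in macrophages. The endothelial value of Hspa1a rests on few cells. The 10% of endothelial cells with most Hspa1a and Hspa1b held 60.1% of these UMIs in the GFP-negative and 64.3% in the RA library. After thinning, Hspa1a was read in 52.3% of GFP-negative and 49.0% of RA endothelial cells, the opposite order to the summed level, with overlapping intervals. With 1 library per group, the difference between classes was not tested. In cardiomyocytes the value for Hspa1b rests on 32 UMIs in the GFP-negative and 64 UMIs in the RA library.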

How the results depend on the processing

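No paired analysis was possible because each group had 1 library. For 66 counts of members past 1.5-fold in either direction, 540 alternatives were run: 478 stayed within 1.5 times with the same balance of higher and lower, 59 moved further and 3 reversed that balance. Of 192 alternatives for 24 single ratios, 176 stayed within the counting interval, 16 moved and 0 changed sign. Shares moved in 13 of 16. Of 549 single calls, 336 also passed a fold of 2. With markers read at 1 UMI, 2 of 548 calls changed sign, Hsph1 in GFP-positive over RA cardiomyocytes and Zfp36 in glial over endothelial cells.

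The reversals were all in heat shock counts: 5 in lymphatic over other endothelial cells with markers read at 1 UMI (3 as reported), and 3 in GFP-negative over RA endothelial cells without the deepest 5% of cells and in capillary cells alone (3 as reported each time). The cause was not tested.

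At a fold of 2, fewer genes can pass by construction. Immediate early counts, with the reported count in parentheses, became 8 (18) for GFP-positive over GFP-negative and 2 (6) for GFP-negative over RA cardiomyocytes. In endothelial cells they became 8 (14) for GFP-positive over GFP-negative, 10 (17) for GFP-positive over RA and 0 (2) for GFP-negative over RA. For GFP-negative over RA they became 3 (5) in fibroblasts and 2 (9) in macrophages. Against endothelial cells they became 2 (8) in mesothelial cells, 8 (14) in GFP-negative and 6 (11) in RA fibroblasts and 7 (13) in other leukocytes. In endothelial subclasses against the rest they became 7 (11) in lymphatic, 13 (20) in endocardial and 1 (10) in capillary cells. Capillary cells gave 9 (16) for GFP-positive over RA and 1 (2) for GFP-negative over RA, and endocardial cells 5 (10), 10 (16) and 3 (6) for GFP-positive over GFP-negative, GFP-positive over RA and GFP-negative over RA.

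Heat shock counts at a fold of 2 became 1 (2), 1 (2) and 0 (2) in cardiomyocytes and 3 (5), 3 (5) and 0 (3) in endothelial cells, in that order of library comparisons, and 2 (6) in GFP-negative over RA macrophages. Against endothelial cells they became 2 (4) in mesothelial cells, 4 (8) in GFP-negative fibroblasts, 2 (6) in smooth muscle or pericyte cells, 5 (8) in other leukocytes, 3 (5) in RA cardiomyocytes and 2 (5) in RA macrophages. In subclasses they became 3 (6) in endocardial, 1 (2) in arterial and 0 (4) in capillary cells. They became 0 (3) in GFP-negative over RA capillary cells, 0 (1) in GFP-positive over GFP-negative and 1 (4) in GFP-negative over RA endocardial cells, and 0 (1) and 2 (8) in endocardial over capillary cells of the GFP-negative and RA libraries.

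With markers read at 1 UMI, heat shock counts became 1 (2) in GFP-positive over RA cardiomyocytes, 3 (6) in glial and 3 (5) in RA macrophages over endothelial cells and 1 (2) in arterial cells, and immediate early counts 4 (2) in GFP-negative over RA endothelial cells and 1 (0) in cycling cells. With the mean of per-cell CPM, heat shock counts became 1 (3) in GFP-negative over RA endothelial cells and 3 (5) in RA cardiomyocytes over endothelial cells, and the immediate early count 1 (0) in cycling cells. Without the deepest 5% of cells, immediate early counts became 1 (0) in arterial, 1 (0) in cycling and 3 (6) in GFP-negative over RA endocardial cells, and heat shock counts 1 (2), 1 (0) and, in GFP-positive over GFP-negative endocardial cells, 2 (1). Among cells with 1000 genes or more and no more than 10% mitochondrial reads, heat shock counts became 4 (2) in both GFP-positive cardiomyocyte comparisons. This setting leaves out most GFP-positive cardiomyocytes, whose median mitochondrial share was 10.8%. In endocardial cells alone, an alternative chosen after seeing the data like that in capillary cells, the heat shock count became 1 (5) for GFP-positive over GFP-negative and the immediate early count 6 (2) for GFP-negative over RA. Small classes, such as the 32 glial and 56 GFP-negative cardiomyocyte cells, have the wider counting intervals.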
